A study of Mus musculus with 60 samples.

Results

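The livers of female CC042/GeniUnc mice on the control diet were compared after 60 and 40 weeks of feeding. CC042/GeniUnc is an inbred strain of the Collaborative Cross, a panel of recombinant mouse strains. The members were chosen from the labels alone, as the female control animals of these 2 durations. They are 10 of the 60 libraries of the series, 5 after 60 weeks (animals 31, 32, 42, 191 and 192) and 5 after 40 weeks (animals 452, 453, 461, 462 and 463). The other libraries are males, the 20-week durations, and animals on a high-fat, high-sucrose (HF/HS) diet, in 12 groups of 5 in all. The control diet was low in fat, reduced in sucrose and matched to the HF/HS diet in its ingredients. No group is labelled with an engineered allele or a drug. The sources used here give neither the age at the start of feeding nor the hour at which livers were taken. The 60-week and 40-week animals carry different ranges of animal numbers, so the duration and the cohort cannot be told apart.

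The liver consists mostly of hepatocytes, which make plasma proteins, bile acids and lipids. Between them lie sinusoids lined by a specialised endothelium and patrolled by Kupffer cells, the resident macrophages, while stellate cells store retinoids in the space beneath. Hepatocytes also respond to inflammation with acute phase proteins, and many of their genes follow the circadian clock, a feedback loop in which the activators Arntl and Clock drive their own repressors, the Per and Cry proteins. Whole-liver RNA reads all of these at once.

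Total RNA depleted of ribosomal RNA was sequenced as stranded libraries. The 10 libraries held 12287877 to 16904184 counts, and Pearson's r across genes within the 2 groups was 0.970 to 0.994. Xist, the non-coding RNA of the inactive X chromosome, was at 3285 CPM or more in all 10 libraries and the Y-linked gene Uty at 0.072 CPM or less. Levels are CPM, counts scaled to library size, after adjustment of the libraries by trimmed means (TMM). Of 24982 gene entries, 14180 had enough counts to be tested with edgeR's quasi-likelihood test over all 60 libraries. Genes were called where the p, adjusted by Benjamini and Hochberg's method across the 14180, lay below 0.05. Changes are log2 fold changes of 60 against 40 weeks ± standard error (SE), and levels are mean ± SD of 5 animals or the values in the order of the animals above. Defining markers of hepatocytes (Alb, Ttr, Apoa1, Hnf4a), Kupffer cells, sinusoidal endothelium and stellate cells were present in every library. The library of animal 31 stood apart from the rest of the 60-week group, and animal 463, with animal 452 to a lesser degree, carried pancreas genes. Both are given beside the results that they touch.

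Between 40 and 60 weeks 2796 genes were called in control females, 19.7% of those tested. Of these, 1546 rose (10.9% of the tested genes) and 1250 fell (8.82%). A change of at least 2-fold was seen in 182 of the genes that rose and 73 of those that fell. The CPM ranges of the 2 groups did not overlap for 809 genes that rose (5.71%) and 621 that fell (4.38%). The median change of all tested genes was 0.0018. The count was 3155 without animal 31 and 2075 to 2943 without any other single library.

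The gene with the largest rise among those whose ranges did not overlap was Sprr1a (chr3:92483952-92485895), which encodes a small proline-rich protein of the cornified envelope of squamous epithelia. It had 2 counts in all 5 libraries at 40 weeks and 156 counts at 60 weeks, a ratio of 77.2 with an exact 95% interval of 21.0 to 643 that covers counting error only. At 60 weeks its level was 1.65, 0.242, 0.718, 7.87 and 0.789 CPM. All 5 animals at 60 weeks were above the highest at 40 weeks, and animal 191 was far above the other 4.

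Neat1 (chr19:5824708-5845478) is the nuclear RNA on which paraspeckles are built. It was at 1847, 1172, 1142, 1067 and 1007 CPM at 40 weeks and at 7077, 4911, 6727, 5242 and 6935 CPM at 60 weeks. The lowest 60-week animal was above the highest 40-week animal. The rise was 2.31 ± 0.33 (edgeR adjusted p = 1.09e-06), from 1247 ± 341 to 6178 ± 1020.3 CPM. Control females at 20 weeks were at 1548 ± 566 CPM.

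Other genes of this kind had lower levels. Tmc7, a transmembrane channel-like protein, rose from 0.412 ± 0.126 to 2.68 ± 2.63 CPM, and animal 31 was its highest library at 7.31 CPM. Vsig2, an immunoglobulin-domain protein, rose from 0.57 ± 0.239 to 2.45 ± 0.789 CPM (2.06 ± 0.33). E2f7, a repressor of the E2F family, rose by 1.81 ± 0.44. Its 40-week values were 4.9, 3.26, 6.74, 4.08 and 5.7 CPM and its 60-week values 8.6, 16.2, 17.7, 16 and 28 CPM, and the lowest at 60 weeks was animal 31. Arrdc2, an arrestin-domain protein, rose by 1.83 ± 0.42, with animals 191 and 192 at 83.2 and 66 CPM and the other 3 at 60 weeks between 18.1 and 21.9 CPM. Ugt1a2, a member of the UDP-glucuronosyltransferase family, rose by 1.63 ± 0.24, and Slc25a27, a mitochondrial carrier, went from 3.14 ± 0.734 to 8.94 ± 1.82 CPM, also a rise. The long non-coding RNAs Meg3, Ctcflos and Lncpint rose by 1.61 ± 0.42, 1.48 ± 0.27 and 1.36 ± 0.19. Ugt1a2 shares exons with its neighbours, and the sources used here do not say whether counting used the strand, so reads of overlapping and antisense genes cannot be assigned with certainty.

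The largest fall of this kind was in Ccr3 (chr9:124021972-124031689), a chemokine receptor known from eosinophils. It was at 2.21, 2.66, 5.03, 4.92 and 5.96 CPM at 40 weeks and 1.15, 0.485, 0.718, 0.93 and 0.35 CPM at 60 weeks. Every 60-week animal was below every 40-week animal (-2.49 ± 0.40, adjusted p = 8.71e-06). The major urinary protein genes Mup7 and Mup1, which encode secreted pheromone carriers, fell, with changes of -2.47 ± 0.41 and -1.49 ± 0.41. Mup7 (chr4:60066469-60070475) was at 3.62, 6.72, 5.85, 8.57 and 6.4 CPM at 40 weeks and 0.0716, 1.27, 1.22, 0.859 and 2.28 CPM at 60 weeks. All 60-week values lay below the lowest 40-week value, with animal 31 the lowest. The Mup genes are near-identical copies, so the values of single members are uncertain.

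In metabolism, G6pdx, the first enzyme of the pentose phosphate pathway, was at 89.1, 81.2, 80.0, 81.2 and 68.3 CPM at 40 weeks and 46.3, 23.8, 39.8, 27.6 and 24.8 CPM at 60 weeks, a fall without overlap (-1.30 ± 0.41, adjusted p = 0.0201). The call was lost without animal 32 or animal 192 and with a clock covariate (described with the clock genes). Several other genes with large falls are known from immune cells. They are Wfdc17, a macrophage-activation protein (-1.69 ± 0.30), Cxcl13, a chemokine that attracts B cells (-1.71 ± 0.47), and Fpr1, a receptor for bacterial formyl peptides (-1.20 ± 0.29). Il13ra2, a decoy receptor of interleukin 13 (-1.37 ± 0.26), Klra2, a lectin-like receptor (-1.07 ± 0.33, not called without animal 32), and Epsti1, an interferon-induced gene (-1.07 ± 0.27), fell as well. Tbxa2r, the thromboxane receptor, and Arg2, the mitochondrial arginase, fell, with changes of -1.03 ± 0.27 and -1.02 ± 0.27.

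**Figure D1:**
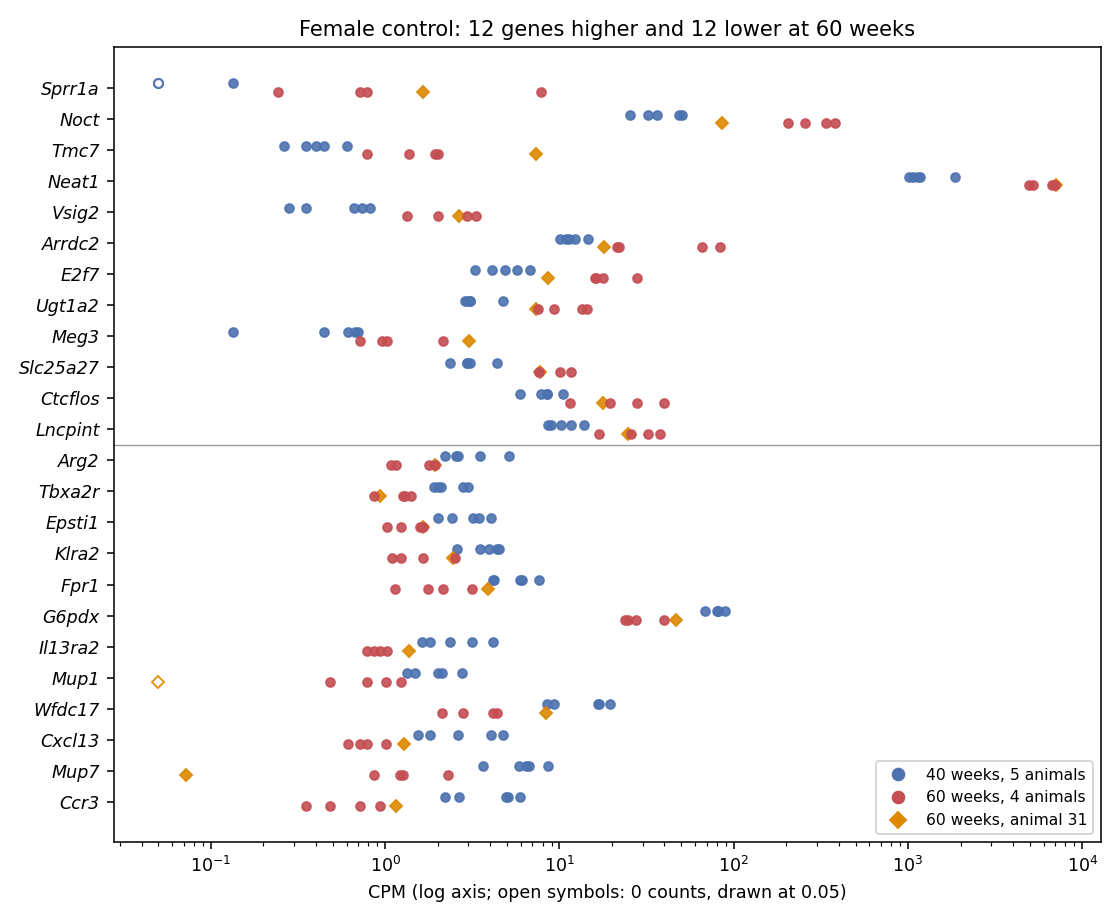
CPM (log axis) of the 12 genes with the largest rise and the 12 with the largest fall among calls averaging 1 CPM or more over the 10 libraries, with ranges that did not overlap. Each point is 1 female control animal, with animal 31 of the 60-week group drawn apart. Sprr1a had 2 counts in all at 40 weeks, and Neat1 was at 4911 CPM or more in all 5 animals at 60 weeks.

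Neat1 was 1 of many nuclear and non-coding RNAs that were higher. Of 150 tested genes annotated as lincRNA, 24.7% rose and 1.33% fell. Among 127 processed transcripts 26.0% rose and 2.36% fell, and among 126 antisense genes 15.9% rose and 1.59% fell. Among 13417 protein-coding genes the shares were 10.3% and 9.15%. Malat1 and Firre, nuclear RNAs named here after their values were seen, rose by 0.64 ± 0.085 and 0.83 ± 0.09. Malat1 was at 6158, 5854, 5382, 5529.9 and 5890.4 CPM at 40 weeks and at 8557, 8068, 8436, 9331 and 10548 CPM at 60 weeks, with no overlap. Xist, given above for the sex of the animals, was at 3285 to 3702 CPM at 40 weeks. At 60 weeks Xist was at 4647 to 5612 CPM, also without overlap. Beside 10.9% of all tested genes, 2 of 13 tested members of a list of small non-coding RNAs rose. They were Snora23 (0.79 ± 0.22) and the vault RNA Vaultrc5 (0.86 ± 0.21). By name 49 such entries were tested in all, and calls outside the list were not counted.

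The direction of change also moved with the length of the gene. Protein-coding genes were divided into 5 bins of near-equal size by summed exon length. In the shortest bin (312 to 2487 bases) 3.99% of 2684 genes rose and 14.5% fell, and the median change was -0.093. In the longest bin (7621 to 123179 bases) 19.3% of 2684 rose and 4.84% fell, and the median change was 0.082. In control males the medians of the same bins were -0.035 and 0.078. The sources used here give no RNA integrity values, and the part that RNA quality, length or nuclear RNA content had in any list below was not tested.

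**Figure D2:**
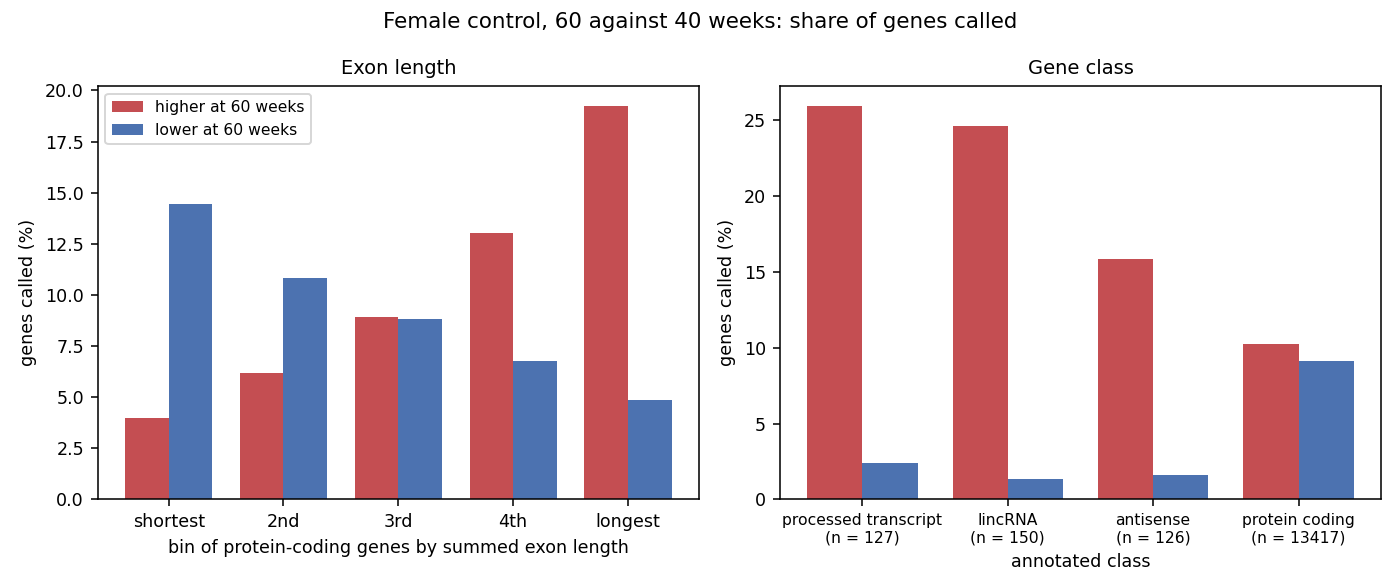
Share of tested genes called higher or lower at 60 weeks (%, bars from 0) by bin of summed exon length (left, protein-coding genes) and by annotated class (right). The share of genes that rose goes from 3.99% in the shortest to 19.3% in the longest bin, and genes that rose outnumbered genes that fell in each of the 3 non-coding classes.

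Kupffer cell and macrophage genes were lower at 60 weeks. Of 23 tested members 0 rose and 13 fell, beside 10.9% of all tested genes that rose and 8.82% that fell. Of the 23, 22 had a negative change, with a median of -0.89. Vsig4, a complement receptor of resident macrophages, was at 49.9, 53.5, 101, 86.6 and 105 CPM at 40 weeks and 65.5, 15.3, 36.1, 29 and 20.9 CPM at 60 weeks. Animal 31 lay within the 40-week range and the other 4 lay below it. The fall was -1.24 ± 0.28 (adjusted p = 0.00102), and it was -1.64 (adjusted p = 2.44e-05) without animal 31. Timd4, a phosphatidylserine receptor of embryo-derived Kupffer cells, fell by 1.14 ± 0.33, from 10.7 ± 3.08 to 4.81 ± 2.91 CPM. Fcgr1, the high-affinity IgG receptor, fell by 1.15 ± 0.33.

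The same pattern by animal was seen across the list. In 12 of the 13 called genes the 4 animals other than 31 were all below the lowest 40-week animal. In all 13 animal 31 was the highest of the 60-week group. Over all 23 tested members these counts were 15 and 21. The 13 were called in these same animals, so low values in the other 4 follow in part from the choice of genes. With animal 31 kept, 1 of the 13 had ranges that did not overlap, beside 621 of all 1250 genes called lower. Animal 31 was set aside after its values were seen. How many of all tested genes had the other 4 animals below the 40-week range was not counted. Examples named after their values were seen are Clec4f, a lectin found on Kupffer cells (-0.93 ± 0.23), Adgre1, which encodes the F4/80 antigen (-1.03 ± 0.27), Lyz2 (-1.03 ± 0.25), the complement component genes C1qa, C1qb and C1qc (-0.86 ± 0.25, -0.89 ± 0.30 and -0.96 ± 0.30) and Csf1r, the receptor of the macrophage growth factor CSF1 (-0.77 ± 0.25). Of the 10 members that did not pass, examples are Marco (-1.25 ± 0.61), Cd163 (-0.71 ± 0.35), Cx3cr1 (-0.19 ± 0.39) and the monocyte gene Ly6c2 (0.098 ± 0.32). Without animal 31, 17 members fell and the median was -1.21, and without animal 461, 32 or 192 it was 8 that fell. In a fit of the 10 libraries alone 8 fell. In bulk tissue, fewer cells of a type and less RNA per cell cannot be told apart.

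The mean log2 CPM of the Kupffer list was 4.28 ± 0.27 in control females at 20 weeks, 5.03 ± 0.37 at 40 weeks and 4.16 ± 0.55 at 60 weeks. The 40-week group was thus the highest of the 3. Beside 8.82% of all tested genes that fell, 0 of 16 lipid-associated macrophage genes rose and 3 fell. These were Fabp5, a fatty acid binding protein (-1.54 ± 0.42), Plin2, a lipid droplet coat protein (-0.40 ± 0.14), and the lysosomal protease Ctsd (-0.34 ± 0.085), while Trem2 and Gpnmb changed by 0.0014 ± 0.49 and 1.95 ± 1.13 and were not called. Fabp5 was at 133, 228, 319.5, 241 and 275 CPM at 40 weeks and 177, 42.7, 109.6, 45.8 and 37.4 CPM at 60 weeks, where animal 31 again lay within the 40-week range.

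The mean level of sinusoidal endothelial genes was lower in each animal at 60 weeks than in any animal at 40 weeks. Of 24 tested members 1 rose and 9 fell, beside 10.9% and 8.82% of all tested genes, with a median of -0.34. Among the 9, 7 had ranges that did not overlap, as did 621 of all 1250 genes called lower. Clec4g (chr8:3707064-3720651), a C-type lectin of the sinusoidal lining, was at 121, 89.9, 118, 105 and 124 CPM at 40 weeks and 63.5, 67.6, 66, 71 and 67.9 CPM at 60 weeks. The 60-week values, animal 31 included, lay close together below all the 40-week values (-0.73 ± 0.099, adjusted p = 6.32e-07). Mrc1, the mannose receptor, which both the endothelial and the macrophage list hold, fell by 0.62 ± 0.097 without overlap.

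Members named after their values were seen are Kdr, the VEGF receptor (-0.52 ± 0.11), Tek, the angiopoietin receptor (-0.52 ± 0.092), Gpr182 (-0.57 ± 0.11), Cdh5 (-0.59 ± 0.096), Pecam1 (-0.44 ± 0.10) and the nuclease Dnase1l3 (-0.36 ± 0.099), all called lower. Of the defining markers, Lyve1 changed by -0.39 ± 0.18 and Stab2 by 0.12 ± 0.19, and neither was called, although the ranges of Lyve1 did not overlap. Stab2 was at 300.2 CPM in animal 31 and at most 132 CPM in the other 60-week animals. Vwf, the von Willebrand factor of vascular endothelium, rose by 1.16 ± 0.29. It was at 19.4, 22, 30.8, 24.8 and 20.6 CPM at 40 weeks and 93.6, 25.2, 33, 78.8 and 31.7 CPM at 60 weeks, where animals 31 and 191 were the highest. The mean log2 CPM of the list was 5.26 ± 0.23 at 20 weeks, 5.50 ± 0.096 at 40 weeks and 5.20 ± 0.069 at 60 weeks.

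Genes of the other liver cells moved little, beside 10.9% of all tested genes that rose and 8.82% that fell. Of 20 genes common to all hepatocytes 0 rose and 1 fell, the fibrinogen gene Fgb, and their median was -0.045. Of 19 pericentral genes none was called. Of 20 periportal genes 2 rose, Asl of the urea cycle (0.36 ± 0.11) and Uroc1 of histidine breakdown (0.36 ± 0.068), and 1 fell, the protease Ctsc (-0.65 ± 0.20). Of 18 stellate cell and fibroblast genes 1 fell, the hepatocyte growth factor Hgf (-0.40 ± 0.09). Kit, the stem cell factor receptor, fell from 22.2 ± 4.01 to 11.8 ± 1.42 CPM without overlap (-0.90 ± 0.12, adjusted p = 7.99e-07). It was the 1 call among 9 genes of the neutrophil and mast cell list, and bulk tissue does not show which cells carried it. The call of Asl was lost without any of 5 animals (461, 462, 463, 191 or 192), and that of Ctsc without animal 191 or 192. None of 14 tested B and plasma cell genes and none of 16 tested T and natural killer cell genes was called. These lists lay near the limit of detection, with 14 of 28 and 16 of 33 members tested. Jchain changed by 0.55 ± 0.27. Of 17 class II and dendritic cell genes 1 rose, Clec9a of cross-presenting dendritic cells (0.85 ± 0.21), and Cd74 changed by -0.37 ± 0.23.

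**Figure D3:**
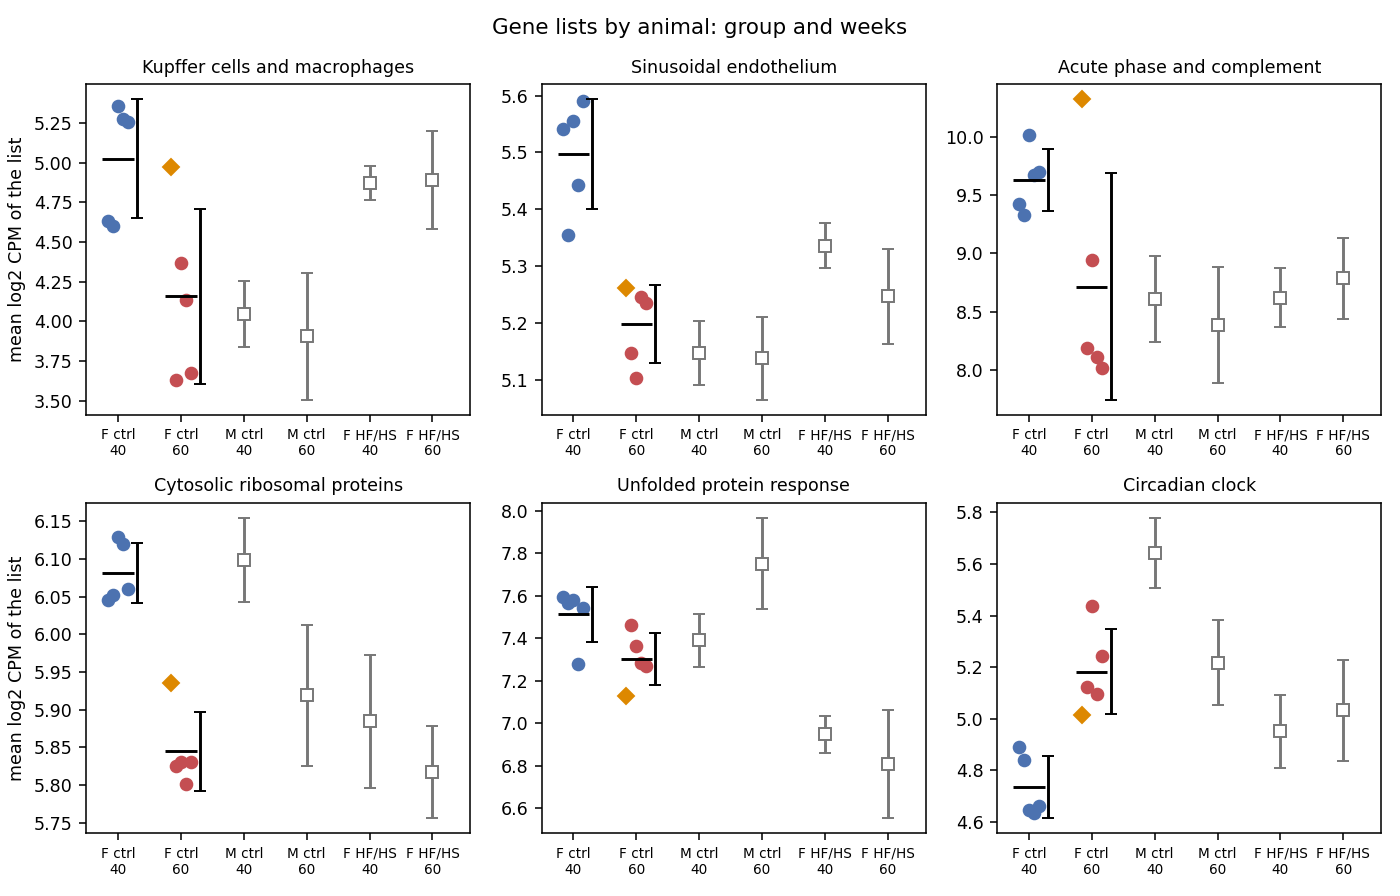
Mean log2 CPM of 6 gene lists by group and weeks of feeding. Points are female control animals (diamond, animal 31), black lines their mean with SD bars beside it, and open squares the mean ± SD of the 5 animals of the male control and female HF/HS groups. Sinusoidal endothelial and ribosomal protein genes separate all 5 animals at 60 weeks from those at 40 weeks, while animal 31 has the highest acute phase level of the 10.

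Acute phase and complement genes split the 60-week group. Of 28 tested members 0 rose and 6 fell, beside 8.82% of all tested genes that fell, with a median of -0.40. The genes called lower were C9 (-1.01 ± 0.22), the 3 fibrinogen chains Fgb, Fgg and Fga (-0.70 ± 0.17, -0.59 ± 0.18 and -0.52 ± 0.17), Serpina3m (-0.40 ± 0.15) and complement factor B, Cfb (-0.35 ± 0.092). The last 3 are named after their values were seen. Fgb was at 3780.5, 4436, 5604, 5192 and 5538 CPM at 40 weeks and 4667, 2529, 2848, 2474 and 2630.0 CPM at 60 weeks. In all 6 called genes the 4 animals other than 31 lay below the lowest 40-week animal. Over all 28 tested members this held for 23. With animal 31 kept, the ranges did not overlap in 1 of the 6, beside 621 of all 1250 genes called lower. How many of all tested genes had the other 4 animals below the 40-week range was not counted.

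Over all 28 members, animal 31 was above the highest 40-week animal in 20 and below the lowest in 1. The other 4 animals lay below the lowest 40-week animal in 27, 23, 26 and 27 of 28 genes. Saa1, a serum amyloid protein that rises strongly in inflammation, was at 1291, 1289, 1919, 1422 and 1511 CPM at 40 weeks and 2156, 141, 671, 58.7 and 66.6 CPM at 60 weeks, and was not called (-1.26 ± 0.78, adjusted p = 0.265). Lcn2, an iron-siderophore binding protein, was at 1256, 90.8, 361, 159.9 and 139 CPM at 60 weeks against 508 to 931 CPM at 40 weeks, and was not called either. Animal 31 was the highest of all 10 for both, and the other 4 were below the whole 40-week group. Without animal 31, 0 members rose and 21 of 28 fell, with a median of -0.90. Control females at 20 weeks had a mean log2 CPM of 8.72 ± 0.89, against 9.63 ± 0.27 at 40 weeks and 8.72 ± 0.97 at 60 weeks. The Saa genes are near-identical copies.

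**Figure D4:**
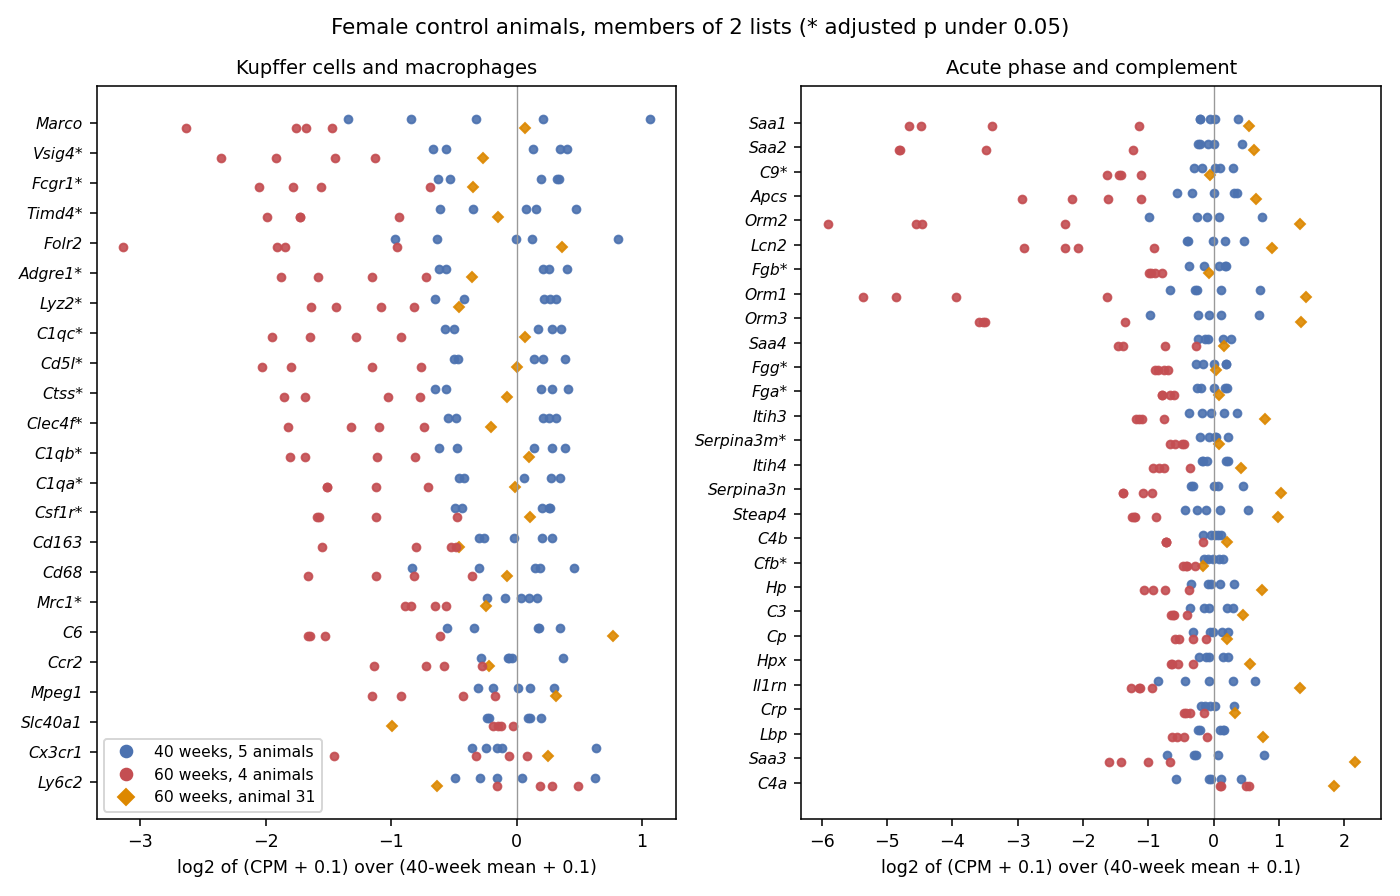
Level of each member of the Kupffer and acute phase lists in each female control animal, as log2 of CPM + 0.1 over the 40-week mean + 0.1, with an asterisk on called genes. Animal 31 (diamonds) lies within or above the 40-week animals for most genes of both lists, and the other 4 animals at 60 weeks lie to the left for most genes.

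Some chemokine and cytokine genes were lower too. Of 28 tested chemokine and cytokine genes 1 rose and 9 fell, beside 10.9% and 8.82% of all tested genes. Il1b, the macrophage cytokine interleukin 1 beta, was at 2.55, 2.86, 3.26, 7.8 and 6.14 CPM at 40 weeks and 3.08, 1.03, 2.37, 1.07 and 0.964 CPM at 60 weeks. The ranges overlapped through animal 31 alone, and the fall was -1.40 ± 0.41 (adjusted p = 0.0121). Cxcl2, a neutrophil attractant, had 17 counts at 40 weeks and 2 at 60 weeks, a ratio of 8.59 with an exact 95% interval of 2.04 to 76.6. Ccl6, Ccl24, Il1a, Cxcl16, Tgfb1 and Il18, named after their values were seen, were the other members called lower besides Cxcl13, with changes of -1.39 to -0.35. The call of Il1b was lost without animal 462, and those of Cxcl2 without animal 461 or 191 and of Ifi27l2a, named next, without animal 461. The 1 that rose was Ccl27a (0.39 ± 0.14). Of the list 4 fell without animal 461, 5 without animal 191 or 192, and 3 in a fit of the 10 libraries alone. Of 36 interferon response genes 0 rose and 3 fell, a share of 8.33% near the 8.82% of all tested genes. They were Ifi27l2a (-1.02 ± 0.31), the nucleic acid sensor Zbp1 (-0.91 ± 0.27) and the GTPase Iigp1 (-0.50 ± 0.11). Iigp1 was at 435 to 567 CPM at 40 weeks and 335 to 399 CPM at 60 weeks, without overlap. Without animal 452 or 191, 5 and 6 of this list fell. Of 16 class I and antigen processing genes 0 rose and 2 fell, not far from the 8.82% of all tested genes that fell. The 2 were the immunoproteasome subunit Psmb8 (-0.57 ± 0.15) and the peptide trimmer Erap1 (-0.25 ± 0.057).

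Cytosolic ribosomal proteins fell as a group by small amounts. Of 34 tested genes 0 rose and 24 fell, beside 8.82% of all tested genes that fell. Of the 34, 33 had a negative change, with a median of -0.27. The ranges did not overlap for 19 of the 24, beside 621 of all 1250 genes called lower. Rps14, Rps19 and Rpl37 fell, with changes of -0.49 ± 0.085, -0.48 ± 0.074 and -0.47 ± 0.065. Rpl37 was at 55.9, 53.1, 56.7, 58.6 and 54.8 CPM at 40 weeks and 42.8, 41.3, 42.3, 37.8 and 37.2 CPM at 60 weeks. All 5 animals at 60 weeks, animal 31 included, were below all 5 at 40 weeks. The list had a mean log2 CPM of 6.07 ± 0.085 at 20 weeks, 6.08 ± 0.04 at 40 weeks and 5.84 ± 0.052 at 60 weeks, so here the 60-week group was the lowest of the 3. Ribosomal protein genes are short and have many processed pseudogenes, and the fall ran in the direction of the trend with exon length given above.

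Of 40 tested replication-dependent histone genes 0 rose and 7 fell, beside 8.82% of all tested genes that fell. The other 33 were not called, and the median was -0.33. Hist1h3c, Hist1h2bl and Hist1h3b, which encode core histones, fell, with changes of -1.58 ± 0.51, -1.23 ± 0.35 and -1.06 ± 0.39 at levels under 3 CPM. In Hist1h3c animal 453 was at 2.4 CPM and the other 40-week animals between 0.268 and 0.773 CPM. The same animal was the highest for the proliferation marker Mki67 (30.8 CPM against 5.23 to 9.42 CPM in its group). Without it the calls of Hist1h3c (-0.78), Hist1h2bl (-0.96) and Hist1h3b (-0.82) were lost and 2 histone genes fell, and 3 or 4 fell without animal 191, 461, 462 or 192. Of 36 cell cycle genes 1 fell, the helicase subunit Mcm4 (-0.38 ± 0.13, not called without 453, 462, 463, 42 or 192), and Mki67 changed by -0.54 ± 0.46. The histone copies are near-identical in sequence.

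Genes of protein folding in the endoplasmic reticulum fell in part. In the list of the unfolded protein and integrated stress response 0 of 23 rose and 5 fell, beside 8.82% lower among all tested genes. The median of the list was -0.24. In all 5 the ranges did not overlap, beside 621 of all 1250 genes called lower. Hsp90b1, the chaperone GRP94, was at 1250.0, 1300.2, 1338, 1263 and 1459 CPM at 40 weeks and 956, 1019, 1010.5, 990.4 and 1089.8 CPM at 60 weeks (-0.38 ± 0.11, adjusted p = 0.0092). Dnajb9 and Sdf2l1, cofactors of the chaperone BiP, fell, with changes of -0.60 ± 0.22 and -0.74 ± 0.27. The disulfide isomerases Pdia3 and Pdia6, named after their values were seen, fell, with changes of -0.34 ± 0.093 and -0.32 ± 0.10. The calls of Dnajb9 and Sdf2l1 were the least stable, lost under 14 and 9 of 19 alternatives, with changes from -0.69 to -0.43 and -0.86 to -0.61. Animal 31 was the lowest of the 60-week group in 4 of the 5. Without animal 453, 463 or 192 the list had 2 calls, without 452, 461, 31 or 191 it had 3 lower, and without both libraries that carried pancreas genes it had 1. Of 18 heat shock genes 1 fell, the mitochondrial chaperonin Hspe1 (-0.37 ± 0.089).

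In the circadian clock list 5 of 23 rose and 0 fell, beside 10.9% and 8.82% of all tested genes. The median of the list was 0.34. Noct (chr3:51224447-51251644), a rhythmic enzyme known as nocturnin that dephosphorylates NADPH, was at 36.1, 48.2, 50.7, 25.4 and 32.4 CPM at 40 weeks and 85.8, 255, 204, 382 and 339 CPM at 60 weeks. Every 60-week animal was above every 40-week animal, and animal 31 was the nearest to them. The rise was 2.71 ± 0.41 (adjusted p = 3.83e-06) and 2.93 (adjusted p = 1.51e-06) without animal 31. Control females at 20 weeks were at 41.3 ± 27.6 CPM.

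Of the repressors, Per2 (chr1:91415982-91459324) was at 19.6, 14.2, 15.2, 17.1 and 18.6 CPM at 40 weeks and 24.9, 25.8, 29.3, 36.1 and 26.2 CPM at 60 weeks, a rise of 0.75 ± 0.21 (adjusted p = 0.00716) without overlap. Ciart, a repressor of the activator complex, rose by 2.25 ± 0.62 from 1.07 ± 0.483 to 5.26 ± 4.4 CPM, with overlap in animal 32 and the highest value in animal 192. Cry2, named after its values were seen, and the output regulator Tef rose by 0.39 ± 0.14 and 0.70 ± 0.26. Per3 changed by 1.21 ± 0.48 and Per1 by 0.96 ± 0.40, and neither was called (adjusted p = 0.0666 and 0.0833), although the ranges of Per3 did not overlap. The activators Arntl, Clock and Npas2 changed by -0.16 ± 0.21, -0.15 ± 0.083 and 0.10 ± 0.34, and the outputs Dbp and Nr1d1 by 0.15 ± 1.06 and 0.34 ± 0.33. None of these passed. The call of Ciart was lost without animal 192, and that of Tef without 452, 461, 462, 463, 32, 42 or 192, with changes from 0.31 to 0.78. The count was 2 without animal 192 and 3 without animal 461, 462, 463 or 42. It was 8 with the leading component of the clock list in the model, a component made from these same genes.

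The clock list and the unfolded protein list, with 5 of 23 called in each, tied for the largest share of called members among the lists with a known promoter motif. Of the 4 called clock genes with the largest changes, Noct, Ciart and Tef were matched in the promoter source and Per2 was not, and those matched are printed to show where that motif lies. The sequences are from RefSeq (GRCm38.p6), 250 bases before to 50 after the annotated start, 5′ to 3′ on the gene's strand. Capitals mark the E-box CACGTG, the site of the activators Arntl and Clock. The D-box core TTATGTAA was also searched. Both strands were searched, and the E-box reads the same on both.
Noct (chr3:51224197-51224496, plus strand): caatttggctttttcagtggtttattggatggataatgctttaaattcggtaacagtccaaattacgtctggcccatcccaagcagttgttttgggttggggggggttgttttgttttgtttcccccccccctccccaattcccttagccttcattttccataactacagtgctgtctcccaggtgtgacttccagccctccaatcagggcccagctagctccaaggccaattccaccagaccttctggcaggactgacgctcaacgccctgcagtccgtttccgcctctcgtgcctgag
Ciart (chr3:95882179-95882478, minus strand): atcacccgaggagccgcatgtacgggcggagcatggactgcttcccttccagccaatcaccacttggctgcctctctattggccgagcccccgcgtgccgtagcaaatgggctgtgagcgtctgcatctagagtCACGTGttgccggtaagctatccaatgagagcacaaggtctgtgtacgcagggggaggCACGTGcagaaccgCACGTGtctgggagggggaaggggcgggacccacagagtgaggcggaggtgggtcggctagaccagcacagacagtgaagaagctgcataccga
Tef, upstream start (chr15:81802423-81802722, plus strand): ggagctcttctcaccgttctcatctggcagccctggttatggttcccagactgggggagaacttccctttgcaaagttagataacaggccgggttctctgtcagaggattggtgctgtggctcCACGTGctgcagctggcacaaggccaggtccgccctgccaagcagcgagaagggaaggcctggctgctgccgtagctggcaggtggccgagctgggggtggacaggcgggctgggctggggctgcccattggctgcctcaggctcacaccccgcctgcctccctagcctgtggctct
Tef, downstream start (chr15:81811164-81811463, plus strand): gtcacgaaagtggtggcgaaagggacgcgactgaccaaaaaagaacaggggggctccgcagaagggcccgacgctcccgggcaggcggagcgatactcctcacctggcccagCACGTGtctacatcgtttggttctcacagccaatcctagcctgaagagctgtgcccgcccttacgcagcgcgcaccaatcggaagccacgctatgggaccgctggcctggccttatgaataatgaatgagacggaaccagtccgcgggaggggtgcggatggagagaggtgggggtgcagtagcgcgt
Ciart held 3 E-boxes, each Tef promoter held 1 and Noct held 0, and none held the D-box core. Among all 32851 promoters there, 7.15% held an E-box and 0.938% the D-box core. For the unfolded protein list 1 element of XBP1 and ATF6, TGACGTGG, was searched on both strands, and it was in 0.676% of all promoters. It was in none of those of Sdf2l1, Dnajb9, Hsp90b1 and Pdia3, the 4 called genes of that list with the largest changes. Other sites of these factors were not searched, so these promoters may hold some. The promoter of Pdia6 was not looked at singly. A match describes the letters in this window and is not a measured binding site.

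Metabolic lists held at most 4 calls each, beside 10.9% of all tested genes that rose and 8.82% that fell. Of 23 genes of glucose metabolism 4 rose and 0 fell. Gckr, the regulatory protein of glucokinase, was at 185, 185, 166, 174 and 168 CPM at 40 weeks and 243, 236, 238, 272 and 279 CPM at 60 weeks, a rise of 0.53 ± 0.063 (adjusted p = 1.15e-07) without overlap. Foxo1, a transcription factor of fasting, Tat, which breaks down tyrosine, and the glucagon receptor Gcgr (named after its values were seen) rose by 0.60 ± 0.19, 0.92 ± 0.34 and 0.22 ± 0.063. For Foxo1 and Tat animals 191 and 192 were the highest of the 10. Of 23 fatty acid and triglyceride synthesis genes 3 rose and 0 fell, where the rises are near the share of all tested genes. Without animal 461, 462, 463, 32, 42 or 192 only 1 of the list was left, and the glucose list had 2 calls without animal 453, 462, 463, 191 or 192. Mlxipl, which encodes the glucose-sensing factor ChREBP, was at 555, 445, 494, 451 and 468 CPM at 40 weeks and 848, 747, 807, 862 and 821 CPM at 60 weeks, again without overlap (0.76 ± 0.11, adjusted p = 1.42e-06). The triglyceride-forming enzymes Dgat1 and Dgat2 rose by 0.26 ± 0.088 and 0.26 ± 0.094, while Fasn and Scd1 changed by 0.44 ± 0.37 and -0.032 ± 0.17 and were not called. The calls of Foxo1, Tat, Dgat1 and Dgat2 were lost without any of 5 or more single animals, 463 and 192 among them in each case, with changes from 0.44 to 0.75, 0.70 to 1.24, 0.22 to 0.30 and 0.22 to 0.33.

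Among 24 genes of lipid droplets and fatty acid uptake 2 rose and 1 fell. Plin4, a droplet coat protein, was at 33.2, 20.2, 12.7, 12.8 and 11.1 CPM at 40 weeks and 27, 19, 57.6, 86.6 and 183 CPM at 60 weeks. The groups overlapped, and the rise of 2.04 ± 0.46 (adjusted p = 0.00119) ran up to animal 192. Cideb rose by 0.19 ± 0.066, Plin2 fell as given above, and Cd36 changed by 0.19 ± 0.26. Sqle, an enzyme of cholesterol synthesis, changed by -0.22 ± 0.44 and was not called. In bile acid synthesis and transport 1 of 23 rose, the canalicular pump Abcc2 (0.43 ± 0.11), and 1 fell, Amacr (-0.25 ± 0.083), while Cyp7a1, which sets the pace of bile acid formation, changed by 0.64 ± 0.58 and was not called. In fatty acid oxidation 1 of 30 rose, the omega-hydroxylase Cyp4a31 (1.17 ± 0.41), and in the respiratory chain 1 of 29 fell, Cox7a2 (-0.30 ± 0.10). In one-carbon and amino acid metabolism 1 of 26 rose, the glycine methyltransferase Gnmt (0.27 ± 0.09). The calls of Cideb, Plin2, Amacr, Cyp4a31, Cox7a2 and Gnmt each were lost without any of 4 or more single animals, whereas those of Plin4 and Abcc2 held without each animal in turn.

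The lists that follow stand beside 10.9% of all tested genes that rose and 8.82% that fell. Of 28 phase I cytochromes P450 2 rose, Cyp3a59 (0.82 ± 0.24) and Cyp3a25 (0.39 ± 0.14). Of 32 conjugation and detoxification genes 1 rose, Gsta2 (2.22 ± 0.62). Of 31 female-biased liver genes 1 rose, Cyp2a22 (1.29 ± 0.47), and 1 fell, Rtn4 (-0.41 ± 0.12), and of 26 male-biased genes none was called. The male-biased list holds neither Mup7 nor Mup1, which fell as given above. Cyp2a22 was at 7.81, 207, 150.0, 253 and 283 CPM at 60 weeks, with animal 31 below all 40-week animals (18.7 to 116 CPM) and the other 4 above them. In the growth hormone axis Stat5b rose (0.22 ± 0.069) and Jak2 fell (-0.30 ± 0.081), 2 of 22 genes. Esr1, the estrogen receptor, changed by -0.13 ± 0.21. The calls of Cyp2a22 and Cyp3a25 were lost without any of 6 or more single animals, that of Gsta2 without animal 191 and that of Stat5b without animal 453 or 31. These Cyp and Gst families hold near-identical members.

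Genes of fetal liver and liver tumours had a median of -0.051. Of 21 tested members 0 fell and 5 rose, beside 10.9% of all tested genes that rose. Of these, Dlk1, a non-canonical Notch ligand, Meg3 and Rian (named after its values were seen) lie at 1 imprinted locus. Dlk1 had 6 counts at 40 weeks and 39 at 60 weeks, at 0.35 to 1 CPM in the latter. Dlk1, Meg3 and Rian had ranges that did not overlap. Scara5, a ferritin receptor, was at 107 CPM in animal 31 and 0.358 to 1.21 CPM in the other 60-week animals. Its rise of 3.18 ± 0.89 became -1.75 (adjusted p = 0.203) without animal 31. Gpc3, an oncofetal glypican, rose by 0.95 ± 0.28 and by 0.61 (adjusted p = 0.11) without animal 31. Without animal 31, 2 of the list rose and 1 fell, and without animal 452, where the call of Gpc3 was also lost, 3 rose. Afp changed by -0.39 ± 0.37.

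Of 40 matrix and fibrosis genes 2 rose and 1 fell, and the median was 0.0068. Both are smaller shares than the 10.9% of all tested genes that rose and the 8.82% that fell. The same holds for the other lists of this paragraph. Col5a1, a fibrillar collagen chain, rose by 0.49 ± 0.14 without overlap, and Dcn, the proteoglycan decorin, fell by 0.48 ± 0.11. Thbs1 rose by 1.39 ± 0.46 and by 0.65 (adjusted p = 0.313) without animal 31, with animal 31 at 29.1 CPM and the other 60-week animals between 2.91 and 9.9 CPM. Col1a1 and Timp1 changed by 0.54 ± 0.50 and 0.75 ± 0.79 and were not called. Of 20 p53 target and senescence genes 1 rose, the kinase Plk3 (1.22 ± 0.40), and the cell cycle inhibitor Cdkn1a changed by 0.62 ± 0.45 (adjusted p = 0.359). Of 21 immediate early genes 2 rose, Dusp1 (0.89 ± 0.33) and Zfp36 (0.71 ± 0.24), both highest in animal 192. Of 19 genes of metallothioneins and iron handling 1 fell and 1 rose. Fth1, the ferritin heavy chain, fell by 0.17 ± 0.054, and Tfrc, the transferrin receptor, rose by 1.28 ± 0.47. Tfrc was at 421 CPM in animal 31 and 35.2 to 63.9 CPM in the others, and the change was -0.049 (adjusted p = 0.948) without it. Mt2, a metallothionein, the stress hormones Gdf15 and Fgf21, and Igfbp1 changed by -0.51 ± 0.65, 0.56 ± 0.35, -0.0078 ± 0.31 and 0.85 ± 0.57, and Spp1, osteopontin, by -0.13 ± 0.27. None of these 5 was called. Of the calls in this paragraph, those of Plk3, Dusp1 and Zfp36 were lost without animal 453, 462, 191 or 192, that of Fth1 without 461 or 32, and those of Thbs1 and Tfrc also without 452, 453 or 463. Krt23, an epithelial keratin on the bile duct list, rose from 0.915 ± 0.837 to 8.21 ± 6.45 CPM (3.09 ± 0.71), with animal 31 at 0.143 CPM, and it was the only one of 20 members called, while the defining markers Krt7, Krt19 and Epcam were not.

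Genes of the exocrine pancreas, which adjoins the liver, were called lower in all 19 tested members. Their summed level was 1137 CPM in animal 463 and 75 CPM in animal 452, against 16.6 to 19.4 CPM in the other 3 at 40 weeks and 4.08 to 28.7 CPM at 60 weeks. Clps and Try4, a colipase and a trypsin, changed by -6.52 ± 1.74 and -6.39 ± 1.77. Zg16, a zymogen granule protein, had 143 counts at 40 weeks and 1 at 60 weeks, a ratio of 144 with an exact 95% interval of 25.5 to 5746. Without animal 463 none of the 19 was called. Mylk of smooth muscle rose by 0.29 ± 0.096, 1 of 16 muscle genes and not called without animal 461, 32, 191 or 192, and no adipose, gut or erythroid gene was called.

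The same step was taken by control males and by HF/HS females, neither of which shares a library with the control females. In both, the groups of the longer and the shorter duration also carry different ranges of animal numbers. Genes shared between these steps therefore cannot tell the duration from the cohort. In control males 4364 genes were called (30.8%) and in HF/HS females 1933 (13.6%). Of the 1546 genes that rose in control females 787 rose in control males as well, which is 50.9% of the female and 34.5% of the male list, and 505 of the 1250 that fell also fell in males (40.4% and 24.3%). Among all tested genes 16.1% rose and 14.7% fell in males, and 66 genes were called in opposite directions. With HF/HS females 505 genes rose in both (32.7% of the control and 52.8% of the HF/HS list) and 436 fell in both (34.9% and 44.7%), and 2 were opposite. Among all tested genes 6.75% rose and 6.88% fell in HF/HS females.

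Neat1 rose by 3.04 ± 0.34 in control males and by 1.63 ± 0.32 in HF/HS females. Mlxipl rose by 0.83 ± 0.11 and 0.35 ± 0.11, and Lncpint by 1.28 ± 0.18 and 0.64 ± 0.18. Ribosomal proteins fell in 20 of 34 cases in control males and in 3 of 34 in HF/HS females, where 1 rose. In neither was the Kupffer list lower as a group: 1 of 23 members fell in males (median -0.019) and 0 in HF/HS females (median 0.083). The mean log2 CPM of that list was 4.04 ± 0.21 and 3.90 ± 0.40 in control males and 4.87 ± 0.11 and 4.89 ± 0.31 in HF/HS females at 40 and 60 weeks.

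The difference between the changes of control females and control males was tested in the same model, and 1003 genes were called (7.07%). Of the Kupffer list 2 of 23 differed, so a difference between the sexes was shown for few of its members. Of 24 sinusoidal genes 7 differed, all with a more negative change in females. Clec4g was at 72.5 ± 6.09 and 67.5 ± 8.53 CPM in males at 40 and 60 weeks and its difference was -0.63 ± 0.14 (adjusted p = 0.00406). Of 23 genes of the unfolded protein list 6 differed, and Dnajb9, which fell in females, rose in males from 59.1 ± 1.65 to 135 ± 24.6 CPM (difference -1.79 ± 0.32). Mup7 differed by -2.22 ± 0.54, Klra2 by -1.81 ± 0.49 and Cyp2c40, a female-biased P450 that fell in males, by 1.90 ± 0.46. Of 20 p53 target genes 7 differed, all more negative in females, and Cdkn1a was at 123 ± 46.8 and 189 ± 52.4 CPM in females and 27.5 ± 16.5 and 252 ± 44.3 CPM in males (difference -2.59 ± 0.66). The sex differences called for Noct and Sdf2l1 were each lost under 15 of 29 alternatives, most of them single animals left out, with values from 1.53 to 3.26 and -1.31 to -0.95. Sprr1a was already at 0.738 ± 0.511 CPM in males at 40 weeks and at 0.91 ± 0.675 CPM at 60 weeks, and its sex difference was lost under 8 of 29 alternatives, among them leaving out female 452, 461 or 191 or male 501.

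After the pancreas list, the clock list had the most such differences, with 16 of 23 called, 12 more positive and 4 more negative in females. In males 5 clock genes rose and 10 fell. Per3 was at 3.78 ± 0.381 and 8.81 ± 1.52 CPM in control females at 40 and 60 weeks and at 48.3 ± 9.03 and 7.15 ± 1.42 CPM in control males (difference 3.97 ± 0.64, adjusted p = 0.000112). Arntl changed by 2.29 ± 0.23 in males and Dbp by -5.34 ± 0.75, against -0.16 ± 0.21 and 0.15 ± 1.06 in females. Tef fell in males, from 243 ± 32.4 to 87.2 ± 13.6 CPM, and Noct changed by 0.95 ± 0.39 (adjusted p = 0.0605). With the leading principal component of the clock list in the model, 3 genes were called for a difference between the sexes, 2 of them also called without it. For a change in control females 2700 were called, 2425 of them also called without it. The component was made from this list in these same libraries, so it takes up changes that go with the clock genes. What the lower count for the sexes rests on was not tested.

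**Figure D5:**
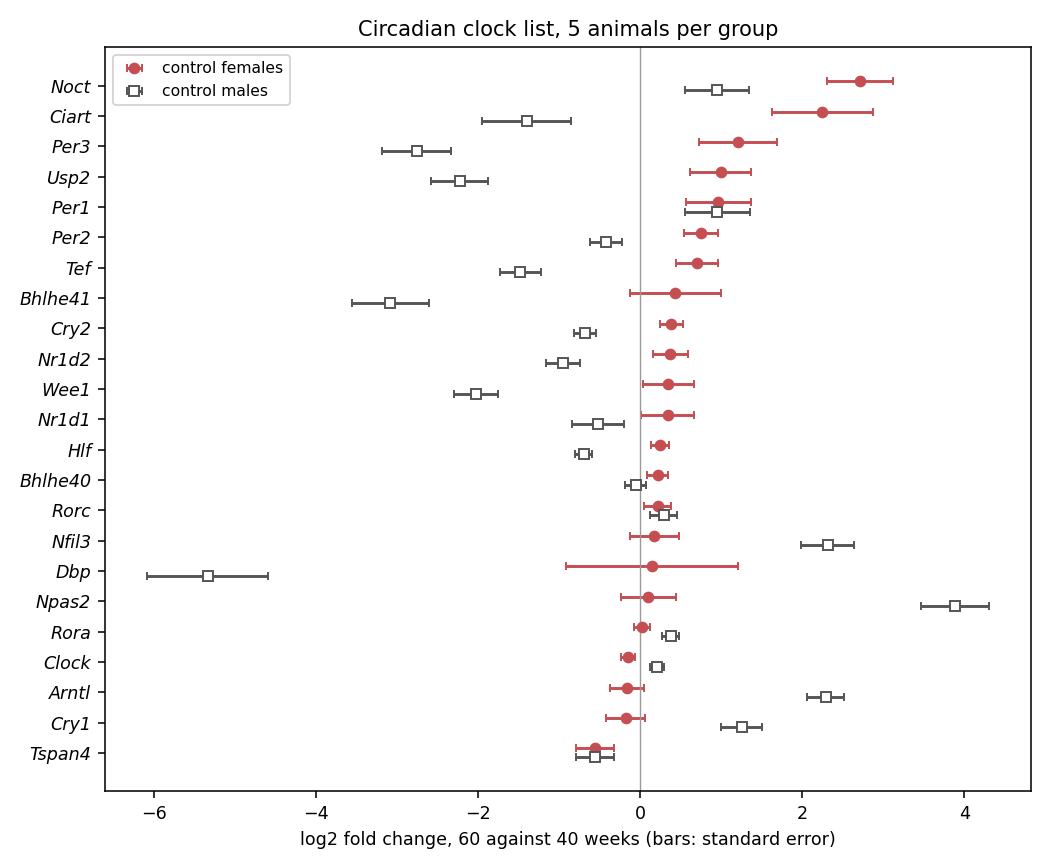
Log2 fold change of 60 against 40 weeks ± SE for the 23 tested clock genes in control females (filled circles) and control males (open squares), 5 animals per group. Arntl and Npas2 lie far to the right and Dbp, Bhlhe41 and Per3 far to the left in males, while Noct is the farthest to the right in females.

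The change of control females differed from that of HF/HS females in no gene at an adjusted p under 0.05 (0.00%) with edgeR, and the lowest adjusted p was 0.0633. At an unadjusted p under 0.05 there were 1763 genes, and DESeq2 called 7 and limma voom 1775. Without animal 31 edgeR called 462.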

How the data were processed

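Counts per gene entry were made and deposited by the authors as raw whole numbers, and the submitters' processing notes name genome build mm10. The aligner, counter, annotation and use of strand are stated nowhere in the sources consulted. Names turned into dates by a spreadsheet were 26 entries, with 0.201% of counts, and 4778 entries had no count. From these counts R 4.3.3 with edgeR 4.0.16 (filterByExpr with a minimum count of 10 and a minimum total of 15, TMM, 12 group means, quasi-likelihood test, 48 residual degrees of freedom) gave every adjusted p in the report, after checks on simulated data. SE is the absolute change over the square root of F. List levels are the mean log2 CPM with a prior count of 2. limma 3.58.1 and DESeq2 1.42.0 were alternatives, beside other scalings, filters, samples and leaving out each animal. Named genes were the 12 highest and 12 lowest calls with a mean of 1 CPM or more and ranges that did not overlap, up to 3 called members of each of 46 lists, a panel given whatever it showed, and the 5 most positive and 5 most negative differences between the sexes. The members, lists and tests were chosen with earlier results of these data known. Each library is a separate animal by its number, and intervals cover counting error only. The result of 1 gene is not reported here.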

Additional observations from a re-analysis of the deposited data

Results flagged for a closer look

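Of 268 groups of 5 animals checked, 32 (11.9%) held an animal whose gap to its nearest neighbour, as a share of the group's range, was above the critical value of 0.710. Chance gives about 1 in 20 for normally distributed values. CPM are skewed, the rate for such values was not measured, and where 1 animal holds all the counts of a group a value of 1 is forced. Animal 31 gave 15 of the 32. At 60 weeks it was far above the others for C9 (0.784), Col1a1 (0.929), Fgb (0.829), Fgg (0.837), Gpc3 (0.714), Lcn2 (0.768), Mt2 (0.715), Scara5 (0.992), Tfrc (0.926), Thbs1 (0.733), Tmc7 (0.812) and the mean of the ribosomal protein list (0.785). It was far below them for Cox7a2 (0.74), Cyp2c40 (0.928) and Dnajb9 (0.825). Of the other animals at 60 weeks, 192 was low for Esr1 (0.866), 191 was high for Sprr1a (0.816), and 32 was high for Try4 and Zg16, where it held all the counts of its group (1 for both).

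At 40 weeks animal 463 was high for the pancreas genes Clps (0.924), Try4 (0.94) and Zg16 (0.929) and for Jchain (0.768). Animal 452 was high for Dgat2 (0.776), Neat1 (0.803) and Ugt1a2 (0.9). Animal 453 was high for Hist1h3c (0.763), Mki67 (0.836) and Sprr1a (1), and animal 461 for Mt2 (0.79) and Scara5 (0.815). Animal 462 was low for the mean of the unfolded protein list (0.846).

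The change from 40 to 60 weeks differed between control females and control males in 32 named genes, with adjusted p from 2.95e-06 to 0.0476. Values are the log2 change in females minus that in males. More positive in females were Ciart (3.65), Cyp2c40 (1.90), Cyp3a25 (0.83), Cyp3a59 (1.61), Dbp (5.49), Dgat2 (0.52), Krt23 (3.42), Noct (1.77), Per2 (1.17), Per3 (3.97), Sprr1a (5.56, with 2 counts in females at 40 weeks) and Tef (2.18). More negative were Arntl (-2.45), Cd74 (-1.08), Cdkn1a (-2.59), Clec4g (-0.63), Cxcl13 (-2.55), Cxcl2 (-3.93), Dcn (-0.58), Dnajb9 (-1.79), Gdf15 (-1.75), Hgf (-0.41), Igfbp1 (-3.18), Il13ra2 (-1.14), Klra2 (-1.81), Mrc1 (-0.45), Mup7 (-2.22), Sdf2l1 (-1.21) and Stat5b (-0.30), as well as the pancreas genes Clps (-9.85), Try4 (-8.66) and Zg16 (-9.68). Alternatives were run for 10 of these genes. The calls of Noct and Sdf2l1 were lost under 15 of 29 alternatives each and that of Sprr1a under 8. With the clock component in the model none of the 10 was called and Tef turned to -0.12. That component was made from the clock list in these same libraries, with Noct, Per3 and Tef among its members. Part of this loss was therefore built in.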

How the results depend on the processing

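The count of genes called in control females was 1995 to 3785 under the alternatives other than limma voom with quality weights, which called 4412, and 2075 to 3155 when single animals were left out. In HF/HS females voom called 4967 and a fit of their own libraries 3556, and leaving out single animals gave 1289 to 1932. In control males leaving out single animals gave 3586 to 4217, and the clock component in the model 1071. The difference between the sexes gave 3061 with voom, 3 with the clock component, 2055 without 4 libraries that stood apart (animals 31, 91, 373 and 383), 522 without animals 452 and 463 (chosen after seeing the data), and 688 to 1358 without single animals. The difference between the diets gave 7 with DESeq2, 1775 with voom, 1330 without the 4 libraries, and 0 to 462 without single animals. Scara5 reversed to -0.56 with voom and to -1.75 without the 4 libraries, and its range without single animals was -1.75 to 4.54. Tfrc reversed to -0.050 without the 4 libraries, with -0.049 to 1.51 without single animals. Both reversed when animal 31 was left out. The difference of Tef between the sexes became -0.12 with the clock component, which Tef itself helps to make. The cause of these moves was not tested. Of 112 named results that were called, 58 under no alternative lost their call while keeping their direction. These 58 include the sex difference of Tef, which reversed and was not called with the clock component. No paired analysis was possible because no animal number is shared between groups. Depth limits the genes with few counts, such as Sprr1a, Cxcl2 and the lymphocyte lists.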
